A study of Mus musculus with 6 samples.

Results

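The 37 genes described here encode the transcription factors and cofactors that pattern and build the embryonic heart. They were taken by symbol from a list of cardiac, second heart field, chamber and atrioventricular canal factors, by a rule that uses no measured value. The list itself was chosen with earlier results of these data known. Each of the 37 symbols matched 1 of the 54532 genes of the count table, and all 37 passed the filter on low counts, as did 19372 genes in all. RNA-seq had been performed on 6 single mouse hearts dissected at embryonic day (E) 9.5. Of these hearts, 3 were wild type (WT) and 3 came from *Smyd1-KO* embryos. *Smyd1-KO* is a conventional null allele, carried in the homozygous state in every cell of the embryo and not in the heart muscle alone, and the mutants are known to die from heart defects shortly after this stage. SMYD1 is a histone methyltransferase restricted to striated muscle. Each heart was a separate embryo, and sex was not selected for. The comparison asked whether loss of *Smyd1* went with a different level of the factors that run the cardiac program.

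The first heart muscle cells form under a small network of factors that bind DNA together and maintain each other's expression. NKX2-5 (homeodomain), GATA4, GATA5 and GATA6 (zinc fingers), TBX5 and TBX20 (T-box) and HAND1 and HAND2 (basic helix-loop-helix) make up its core. SRF, the MEF2 proteins and myocardin drive contractile genes. ISL1 and TBX1 act in the second heart field, the progenitor pool that adds the outflow tract and right ventricle, while Iroquois and HEY factors mark chambers and TBX2 and TBX3 hold back chamber genes in the atrioventricular canal.

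Values are counts per 1000000 (CPM), scaled by the trimmed mean of M-values (TMM), and log2 fold changes are *Smyd1-KO* against WT from edgeR's quasi-likelihood test, with Benjamini-Hochberg adjustment over the 19372 genes tested. A gene was called where the adjusted *P* was below 0.05 and the fold change was 0.5 or more in size on the log2 scale. Hearts are named by genotype and label number, and nothing says that equal numbers mark related embryos. Total counts ran from 48627825 (*Smyd1-KO* heart 1) to 64217529. The targeted gene, *Smyd1*, was measured at 414, 379 and 270 CPM in WT hearts 1, 2 and 3 and at 101, 222 and 206 CPM in the matching numbers of *Smyd1-KO* hearts. All mutant hearts lay below all WT hearts. The log2 fold change was -1.01 (SE 0.300), not called by edgeR (adjusted *P*=0.0973). These counts cover the whole gene, and which bases the allele lacks is not given in the sources used here. Heart muscle markers were present in every library, with 10 of 10 detected.

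None of the cardiac transcription factors was called in either direction. The count was 0 of 37, where 4.28% of all tested genes were called (2.86% higher and 1.42% lower). At an unadjusted *P* below 0.05 there were 5 of 37 members, against 25.1% of all tested genes. *Irx1* was the member on the higher side, and *Gata5*, *Tbx2*, *Myocd* and *Hand2* were those on the lower side, where the shares of all genes were 13.1% and 11.9%. DESeq2 called 2 members, *Gata5* lower and *Irx1* higher, against 9.29% of the genes it tested. The fold changes of the members lay between -0.65 (*Isl1*) and 0.73 (*Hand1*), 19 of them above 0 and 18 below (50.2% of all tested genes were below), with a median of 0.01 beside -0.00 over all genes. No member reached an absolute log2 fold change of 1, which 7.42% of all tested genes did, although the median absolute value of the members was 0.308 against 0.248 over all genes.

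**Figure D1:**
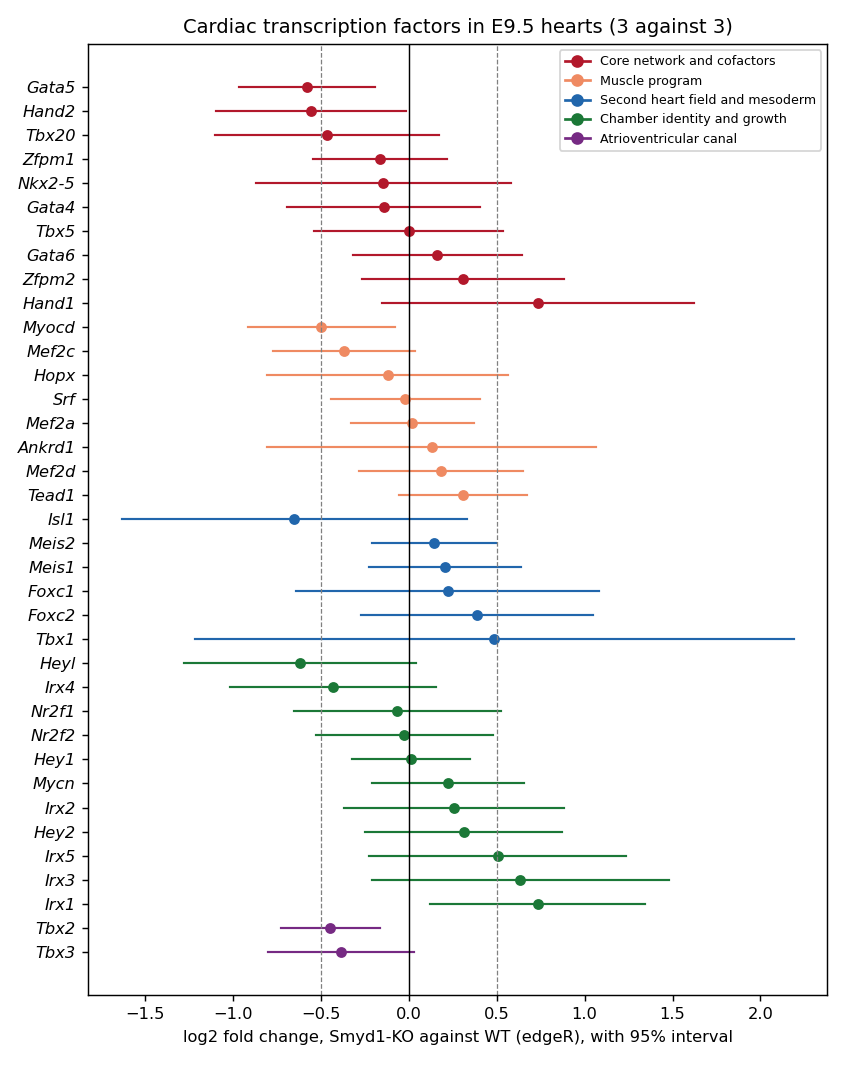
Log2 fold change, *Smyd1-KO* against WT, of each of the 37 members (points) with its 95% interval from edgeR (bars), ordered within 5 role groups; dashed lines mark the threshold of 0.5 in each direction. Points run from -0.65 (*Isl1*) to 0.73 (*Hand1*), and the bar of *Tbx1* is the widest, from -1.22 to 2.19.

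An adjusted *P* above the threshold does not show that a level stayed the same, and the intervals say how large a difference these 6 hearts could have missed. For 24 members the whole 95% interval lay within a 2-fold change in each direction. For the other 13 it reached past 2-fold. Narrow ranges near 0 included *Hey1* (-0.32 to 0.35) and *Mef2a* (-0.33 to 0.37), and the widest belonged to *Tbx1* (-1.22 to 2.19) and *Isl1* (-1.63 to 0.33). *Nkx2-5* (-0.87 to 0.58) and *Gata4* (-0.69 to 0.41) lay between these.

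The core network held 1 of 10 members without overlap between genotypes, beside 31.3% of all tested genes. *Gata5*, a zinc finger factor of the endocardium and early myocardium, was measured at 98.9, 127 and 99.9 CPM in WT hearts and at 58.4, 72.7 and 87.2 CPM in *Smyd1-KO* hearts. Every mutant heart was below every WT heart, and the log2 fold change was -0.58 (SE 0.165, edgeR adjusted *P*=0.0866). Leaving out 1 heart at a time moved it between -0.73 and -0.44, never past the thresholds. DESeq2 gave an adjusted *P* of 0.0195. An antisense gene, *Gata5os*, shares 7.87% of the *Gata5* exon bases but held only 631 counts over the 6 hearts beside 32751 for *Gata5*.

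*Hand2*, a bHLH factor needed for the right ventricle, was measured at 123, 134 and 96.7 CPM in WT hearts and at 54.9, 81.9 and 104 CPM in *Smyd1-KO* hearts. Here *Smyd1-KO* heart 3 lay above WT heart 3, so the groups overlapped. The log2 fold change was -0.55 (SE 0.230, edgeR adjusted *P*=0.190), and it was -0.34 without *Smyd1-KO* heart 1. Its antisense partner *Hand2os1* shares 19.6% of the *Hand2* exon bases and held 12359 counts beside 35703, and since the strand setting of the counting is not given in the sources used here, reads of the shared bases cannot be told apart. The paralog *Hand1*, of the left ventricle and outflow tract, gave 93.2, 74.5 and 71.7 CPM in WT hearts and 86.1, 84.9 and 227 CPM in *Smyd1-KO* hearts. Only *Smyd1-KO* heart 3 stood outside the WT range for *Hand1*. The log2 fold change of 0.73 (SE 0.378, edgeR adjusted *P*=0.277) was 0.10 without that heart.

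RefSeq windows of 250 bases before to 50 after the gene start (GRCm38.p6) were at hand for 23 members. Those of *Gata5* (chr2:180334630-180334929, - strand) and *Hand2* (chr8:57320733-57321032, + strand) are shown because these were the members with an unadjusted *P* below 0.05 that had a window. Capitals mark matches on either strand to the GATA word AGATAA and to the E-box CANNTG, the words bound by GATA and bHLH factors.
Gata5: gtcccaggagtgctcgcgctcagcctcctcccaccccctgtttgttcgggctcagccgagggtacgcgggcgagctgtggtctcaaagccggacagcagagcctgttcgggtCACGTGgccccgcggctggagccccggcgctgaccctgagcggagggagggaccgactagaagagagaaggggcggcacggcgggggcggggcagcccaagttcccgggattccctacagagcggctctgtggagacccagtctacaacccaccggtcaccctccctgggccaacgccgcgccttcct
Hand2: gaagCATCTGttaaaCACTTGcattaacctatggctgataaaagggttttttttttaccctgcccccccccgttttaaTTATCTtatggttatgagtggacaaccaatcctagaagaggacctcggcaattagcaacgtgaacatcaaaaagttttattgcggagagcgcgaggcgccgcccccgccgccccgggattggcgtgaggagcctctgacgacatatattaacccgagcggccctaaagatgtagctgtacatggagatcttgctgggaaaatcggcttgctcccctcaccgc
The *Gata5* window was 69.7% G or C, with 26 CpG, 1 E-box and no AGATAA. That of *Hand2* was 50.3% G or C, with 17 CpG, 2 E-boxes and 1 GATA word. Over all 32851 windows, 11.2% held AGATAA and 72.3% held an E-box, and over the 28 windows of the members 3 and 17 did. The member windows were rich in CpG, since 75% had at least 10 (21 of 28) against 43.5% of all windows. A match is a description of letters and not a bound site.

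The other core factors overlapped between genotypes. *Nkx2-5*, the homeodomain factor that had the highest level per length of the core group, was measured at 347, 340 and 213 CPM in WT hearts and at 158, 312 and 345 CPM in *Smyd1-KO* hearts. The spread within each genotype was larger than the difference between them, with a coefficient of variation of 25.1% among WT and of 36.8% among *Smyd1-KO* hearts and a log2 fold change of -0.15 (SE 0.309, edgeR adjusted *P*=0.808). *Tbx20*, a T-box factor needed for chamber growth, gave 193, 251 and 183 CPM in WT hearts and 91.4, 166 and 198 CPM in *Smyd1-KO* hearts. *Smyd1-KO* heart 1 was the low value, and the log2 fold change was -0.47 (edgeR adjusted *P*=0.332). The remaining members had log2 fold changes of -0.14 for *Gata4*, 0.16 for *Gata6*, -0.16 for *Zfpm1* and 0.31 for *Zfpm2*, the last pair being FOG cofactors that bind GATA proteins. *Tbx5*, the T-box factor of the left ventricle and atria, stood at -0.00, and its sign depended on the scaling.

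In the muscle program, 1 of 8 members, *Myocd*, had no overlap between genotypes, beside 31.3% of all tested genes. It encodes myocardin, the SRF coactivator of cardiac and smooth muscle, and was measured at 47.9, 65.7 and 46.7 CPM in WT hearts and at 30.1, 41.3 and 42.0 CPM in *Smyd1-KO* hearts. Mutant hearts were all lower, with a log2 fold change of -0.50 (SE 0.178, edgeR adjusted *P*=0.140). It was -0.32 without WT heart 2, which had the highest value. *Srf* itself, its DNA-binding partner, was at -0.02. *Mef2c*, the MEF2 factor of the second heart field and myocardium, gave 148, 162 and 136 CPM in WT hearts and 85.6, 137 and 122 CPM in *Smyd1-KO* hearts. *Smyd1-KO* heart 2 lay just inside the WT range, and the log2 fold change was -0.37 (edgeR adjusted *P*=0.233).

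*Ankrd1*, a stress-responsive cofactor of the myocardium, had the highest level of the muscle group and varied most among WT hearts. It was measured at 869, 421 and 293 CPM in WT hearts and at 393, 677 and 662 CPM in *Smyd1-KO* hearts. The mutant values lay inside the WT range, with a log2 fold change of 0.13 (edgeR adjusted *P*=0.870) that moved between -0.16 and 0.70 when 1 heart was left out. *Tead1*, the DNA-binding partner of YAP, stood at 0.31, *Mef2d* at 0.18, *Mef2a* at 0.02 and *Hopx*, an atypical homeodomain protein, at -0.12.

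Among second heart field and mesodermal factors the spread between hearts was the main feature. *Tbx1*, the T-box factor of pharyngeal mesoderm, gave 20.5, 59.3 and 53.7 CPM in WT hearts and 98.4, 78.1 and 10.7 CPM in *Smyd1-KO* hearts. The highest and the lowest of the 6 values were both mutant hearts. Its log2 fold change of 0.49 (edgeR adjusted *P*=0.721) was 0.99 without *Smyd1-KO* heart 3 and -0.00 without *Smyd1-KO* heart 1. *Isl1*, the LIM-homeodomain marker of the progenitor pool, gave 23.3, 58.0 and 53.1 CPM in WT hearts and 29.1, 40.8 and 15.7 CPM in *Smyd1-KO* hearts. WT heart 1 was low for both genes, and *Isl1* had a log2 fold change of -0.65 (edgeR adjusted *P*=0.377).

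*Meis2*, a TALE homeodomain cofactor, had the highest level of this group at 143, 154 and 176 CPM in WT hearts and 206, 175 and 140 CPM in *Smyd1-KO* hearts. *Smyd1-KO* heart 1 was above and *Smyd1-KO* heart 3 below the WT range, for a log2 fold change of 0.14 (edgeR adjusted *P*=0.598). Its paralog *Meis1* stood at 0.20. The forkhead genes *Foxc1* and *Foxc2*, of pharyngeal and outflow mesoderm, stood at 0.22 and 0.39.

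Of the chamber factors, *Irx1* had the largest difference. It encodes an Iroquois homeodomain protein of the ventricular septum and was measured at 45.9, 57.8 and 46.4 CPM in WT hearts and at 112, 86.7 and 51.3 CPM in *Smyd1-KO* hearts. Hearts 1 and 2 of the mutants were above all WT hearts, and heart 3 was within their range. The log2 fold change was 0.73 (SE 0.260, edgeR adjusted *P*=0.138), with an adjusted *P* of 0.0340 in DESeq2. Without *Smyd1-KO* heart 3 it was 0.99 and called (edgeR adjusted *P*=0.0314), and without *Smyd1-KO* heart 1 it was 0.46. *Irx3* had the same order of mutant hearts, with 52.3, 95.01 and 77.6 CPM in WT hearts and 176, 109 and 65.2 CPM in *Smyd1-KO* hearts, for a log2 fold change of 0.63 (edgeR adjusted *P*=0.321). *Irx5* stood at 0.50 and *Irx2* at 0.26. *Irx4*, the ventricular member of the family, stood at -0.43 (edgeR adjusted *P*=0.330).

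*Mycn*, which sustains growth of the compact myocardium, had the highest level of the chamber group at 168, 143 and 169 CPM in WT hearts and 231, 194 and 137 CPM in *Smyd1-KO* hearts. Its log2 fold change was 0.22 (edgeR adjusted *P*=0.492), and *Smyd1-KO* heart 3 lay below the WT hearts. The HEY repressors, which act downstream of Notch, stood at 0.01 for *Hey1*, 0.31 for *Hey2* and -0.62 for *Heyl*. Without *Smyd1-KO* heart 1, *Hey2* was at 0.56 and called (edgeR adjusted *P*=0.0242). *Heyl* had the lowest level of all members, at 1.44, 1.99 and 1.40 CPM in WT hearts and 1.07, 1.32 and 0.753 CPM in *Smyd1-KO* hearts, and although the groups did not overlap it was not called (edgeR adjusted *P*=0.224). The orphan nuclear receptor genes *Nr2f1* and *Nr2f2*, of atrial myocardium, stood at -0.06 and -0.02.

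Both atrioventricular canal factors were at lower mean levels in *Smyd1-KO* hearts. *Tbx2*, a T-box repressor of chamber genes, was measured at 83.7, 87.2 and 69.5 CPM in WT hearts and at 51.2, 61.5 and 63.9 CPM in *Smyd1-KO* hearts. No mutant heart reached the WT range, and the log2 fold change was -0.45 (SE 0.121, edgeR adjusted *P*=0.0763), below 0.5 in size. DESeq2 gave an adjusted *P* of 0.0314, so that *Tbx2* missed the call there by its size alone. The related *Tbx3*, which also serves the conduction system, gave 46.3, 73.8 and 64.4 CPM in WT hearts and 40.6, 51.8 and 49.03 CPM in *Smyd1-KO* hearts. WT heart 1 fell among the mutant values, for a log2 fold change of -0.38 (edgeR adjusted *P*=0.230).

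Across the role groups, 4 members had no overlap between genotypes, and all 4 (*Gata5*, *Tbx2*, *Myocd* and *Heyl*) were lower in *Smyd1-KO* hearts. Over all tested genes, 31.3% had no overlap (15.9% higher and 15.5% lower), so the members' share was below that of all genes.

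**Figure D2:**
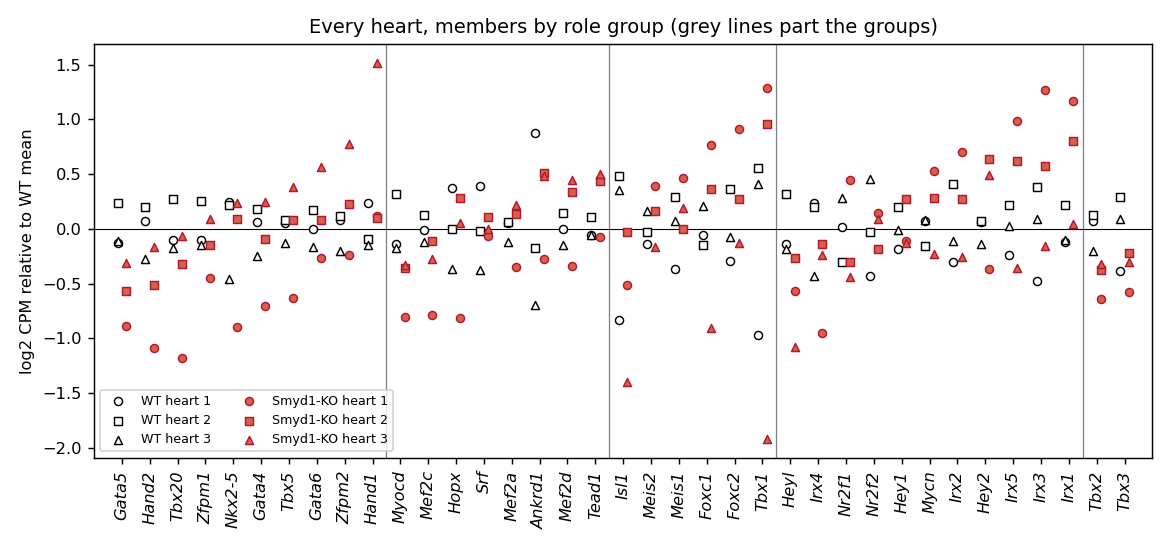
Log2 CPM of each member in each of the 6 hearts relative to its WT mean; symbols give the heart number, open symbols WT and filled symbols *Smyd1-KO*, and grey lines part the role groups. *Smyd1-KO* heart 1 (circles) is the lowest mutant heart for 9 of 10 core and 8 of 8 muscle genes, whereas *Smyd1-KO* heart 3 (triangles) is the lowest for 5 of 6 second heart field genes.

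The mutant hearts differed among themselves along the role groups. *Smyd1-KO* heart 1 had the lowest mutant value for 9 of 10 core genes (all but *Hand1*), 8 of 8 muscle genes and both atrioventricular canal genes. The same heart had the highest mutant value for 5 of 6 second heart field genes and 7 of 11 chamber genes. *Smyd1-KO* heart 3 was highest for 10 of 10 core genes and lowest for 5 of 6 second heart field and 8 of 11 chamber genes. Over all tested genes, heart 1 was the lowest mutant heart for 39.7% and heart 3 for 36.3%. Heart 1 was the highest for 39.9% and heart 3 for 35.1%. The WT hearts also had an order, since WT heart 2 was the highest WT heart for 26 of 37 members (70.3%, against 28.9% of all genes). WT heart 3 was the lowest for 9 of 10 core genes, against 34.8% of all genes.

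Summed markers of the cell types in the dissected tissue had some of these orders among the mutant hearts. Some also shared the lowest WT heart of the core and muscle genes. The endothelial, erythroid and hepatic sums were highest in WT heart 2. The cardiomyocyte, pharyngeal endoderm, neural crest and epicardial sums were not. The 10 cardiomyocyte markers summed to 19410, 18390 and 11770 CPM in WT hearts and to 8864, 18190 and 18270 CPM in *Smyd1-KO* hearts. *Smyd1-KO* heart 1 and WT heart 3, the low hearts of the core and muscle genes, were the lowest for this sum too. The median core gene stood 0.67 below its WT mean on the log2 scale in *Smyd1-KO* heart 1, at -0.01 in heart 2 and at 0.24 in heart 3. In bulk tissue, fewer cells of a type and less RNA per cell cannot be told apart.

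The second heart field genes had medians of 0.62, 0.21 and -0.53 in *Smyd1-KO* hearts 1, 2 and 3. The 8 pharyngeal endoderm markers summed to 240, 188 and 117 CPM in the same hearts (107 to 193 CPM in WT), and the 7 neural crest markers to 195, 101 and 74.8 CPM (88.3 to 116 CPM in WT). All these markers were above 0 in every heart. Both sums had the order of the second heart field members among the mutant hearts. The part of tissue makeup in the members' values was not tested. With the summed cardiomyocyte markers as a covariate, an alternative added after the data were seen, edgeR called 1 member, *Gata5* (log2 fold change -0.53, adjusted *P*=0.0344).

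**Figure D3:**
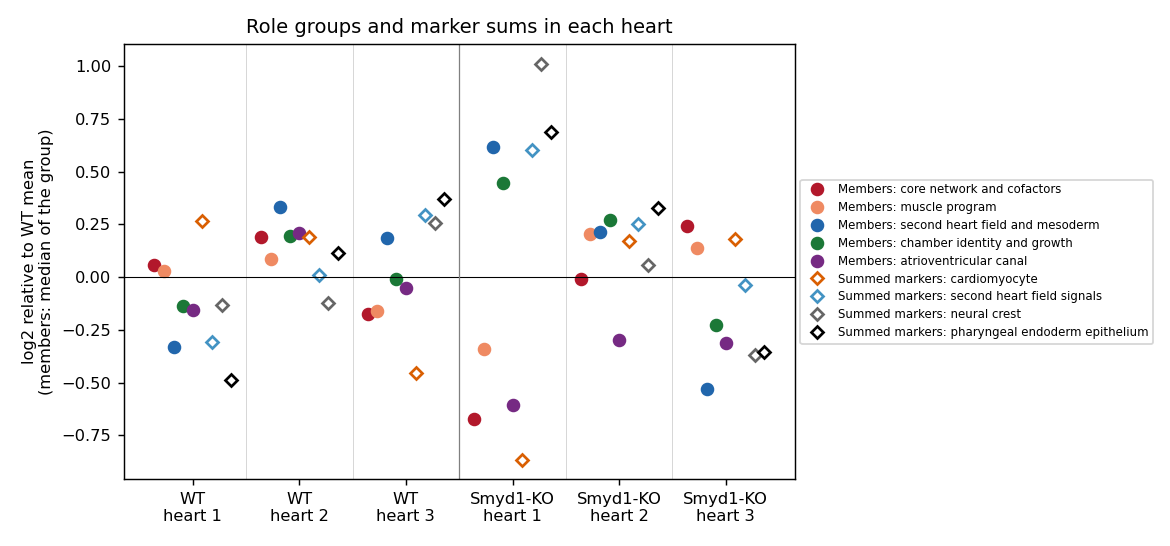
Median log2 level of each role group of members (filled circles) and summed level of 4 marker lists (open diamonds) in each heart, relative to the WT mean; points are spread sideways for legibility. In *Smyd1-KO* heart 1 the core median is at -0.67 and the cardiomyocyte sum at -0.86, while the second heart field median is at 0.62.

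Other marker lists differed between hearts too. The 8 epicardial markers summed to 125 to 156 CPM in WT hearts and to 160, 231 and 282 CPM in mutant hearts 1, 2 and 3, the order of the core genes among the mutants, with 0 of 8 called by edgeR. DESeq2 called 2 of them higher, *Upk3b* (log2 fold change 1.33, adjusted *P*=0.0656 in edgeR and 0.000375 in DESeq2) and *Wt1* (1.11, adjusted *P*=0.0945 in edgeR and 0.00395 in DESeq2). The 10 erythroid markers summed to 727 to 953 CPM in WT and to 27.6 to 276 CPM in *Smyd1-KO* hearts, where *Alas2* and *Gata1* fell (log2 fold changes -2.19 and -3.14, edgeR adjusted *P*=0.0428 and 0.0445). The 10 endothelial markers summed to 874, 931 and 760 CPM in WT hearts 1, 2 and 3. In mutant hearts 1, 2 and 3 they summed to 801, 958 and 1232 CPM. Within each genotype this was the order of the core medians. Of these markers 1 was called by edgeR, the VEGF receptor gene *Flt1*, which rose (log2 fold change 1.15, edgeR adjusted *P*=0.0192). The list held 5 genes above 0 and 5 below, among them *Kdr* at 0.70, *Npr3* at -0.52 and *Nfatc1* at -0.83 (edgeR adjusted *P*=0.0569, 0.0567 and 0.0687), and DESeq2 called 2 higher and 2 lower. The hepatic markers summed to 0.812 to 69.3 CPM, with 2 of 6 at 0 in some heart. Their part in the members' values was not tested.

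To compare genes with each other, counts were divided by exon length and scaled to the same total in every heart. On this scale *Ankrd1* (630.2 as the WT mean) and *Nkx2-5* (609.5) had the highest levels of the 37 in both genotypes, and they did not differ beyond their spread. *Srf* (240.0) and *Gata4* (238.5) followed, again alike within their spread. *Gata4* was clear of *Hand2*, with a lowest WT value of 210.9 against a highest of 201.6. *Srf* was not, at 192.3 in WT heart 3. *Hand2* (176), *Mycn* (171), *Zfpm1* (157), *Hand1* (140) and *Gata5* (117) came next with neighbouring levels that overlapped. At the lower end, *Mef2a* (24.8), *Foxc1* (16.7), *Zfpm2* (6.71) and *Heyl* (1.11) were each set apart from the next. The order depended on the length used, since with the longest transcript in place of all exons *Mef2a* moved from rank 34 to 25, *Mef2c* from 28 to 19 and *Gata6* from 11 to 7. By mean level in *Smyd1-KO* hearts, *Hand2* ranked 9 in place of 5 and *Gata5* ranked 15 in place of 9. *Hand1* ranked 4 in place of 8, a rank that rested on *Smyd1-KO* heart 3, at 383 per length against 149 and 143 in the other mutant hearts.

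**Figure D4:**
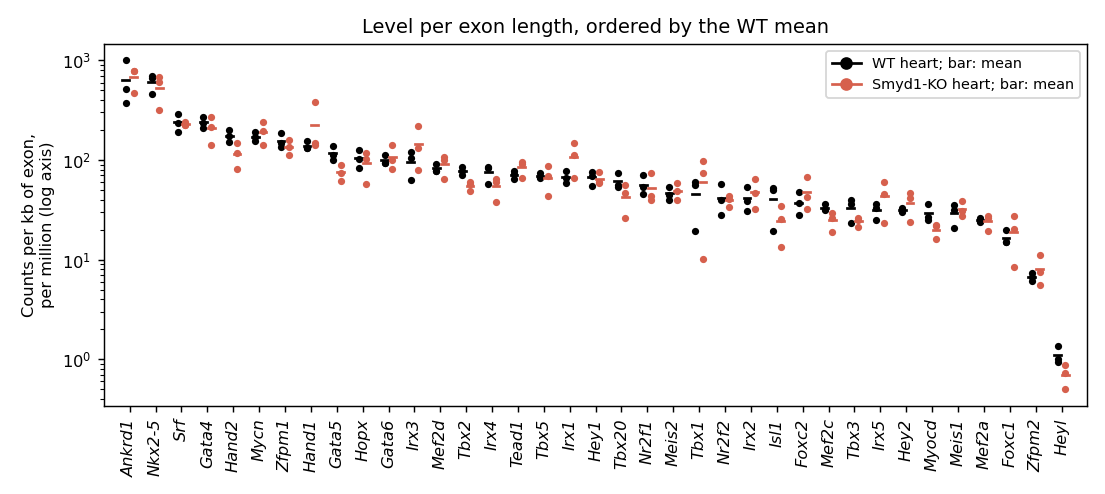
Level per exon length (counts per kb of exon, scaled to the same total in every heart, log axis) of each member in WT (black) and *Smyd1-KO* (red) hearts, ordered by the WT mean; points are hearts and bars are means. The order runs from *Ankrd1* (630.2) and *Nkx2-5* (609.5) to *Heyl* (1.11).

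Ratios of paralogs within a heart set aside what both genes share in that heart. Of 34 pairs in 10 families, 10 had ratios that did not overlap between genotypes (29.4%), beside 29.3% of all pairs of genes with a count in every heart. With 3 hearts against 3, the exact two-sided permutation test cannot go below 0.1, and each of the 10 pairs reached that value (0.34 after adjustment over the 34 pairs). These values therefore describe the hearts and carry no call.

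The *Hand1* to *Hand2* ratio was 0.760, 0.555 and 0.742 in WT hearts and 1.57, 1.04 and 2.18 in *Smyd1-KO* hearts. *Hand2* was the more abundant in every WT heart and *Hand1* in every mutant heart by counts, a log2 difference of 1.17 that stayed between 0.91 and 1.45 when 1 heart was left out. The *Gata5* to *Gata6* ratio was 0.536, 0.613 and 0.607 in WT hearts and 0.379, 0.373 and 0.318 in *Smyd1-KO* hearts. These mutant hearts lay close together although their *Gata5* levels did not, and the log2 difference was -0.72. The *Mef2c* to *Mef2d* ratio was the steadiest in WT at 1.05, 1.04 and 1.07, and was 0.770, 0.773 and 0.640 in *Smyd1-KO* hearts, a log2 difference of -0.54. The other pairs without overlap had log2 differences of -0.31 for *Gata4* to *Gata6*, 0.39 for *Mef2a* to *Mef2c*, 0.47 for *Tbx5* to *Tbx20*, 0.43 for *Irx1* to *Irx2*, 0.25 for *Irx1* to *Irx5*, -0.43 for *Zfpm1* to *Zfpm2* and 0.65 for *Hey1* to *Heyl*.

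**Figure D5:**
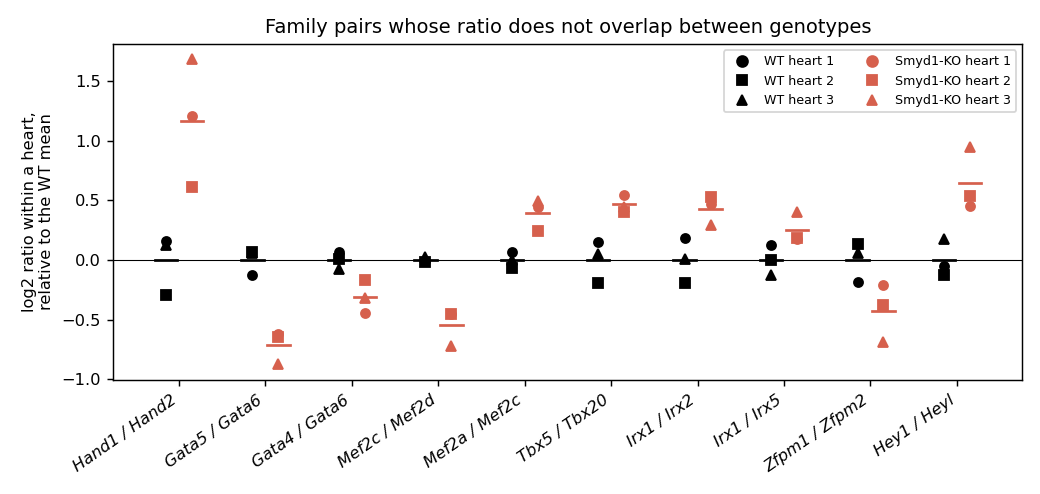
Log2 ratio of 10 paralog pairs within each heart, relative to the WT mean of the pair; black symbols are WT hearts, red symbols *Smyd1-KO* hearts, bars are means and symbols give the heart number. The *Hand1* to *Hand2* ratio is higher in all 3 mutant hearts (mean difference 1.17) and the *Gata5* to *Gata6* ratio lower (-0.72).

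Among 24 related factors and cofactors, 1 rose and 0 fell in edgeR and DESeq2 called 4, beside 4.28% and 9.29% of all genes tested, so that the edgeR count was at the background. *Mef2b*, a further MEF2 gene, was measured at 0.302, 0.646 and 0.526 CPM in WT hearts and at 2.18, 3.52 and 3.57 CPM in *Smyd1-KO* hearts. All mutant hearts were higher, with a log2 fold change of 2.65 (SE 0.348, edgeR adjusted *P*=0.0111), and DESeq2 called it too (adjusted *P*=9.52e-12). It was not called without WT heart 2 or without WT heart 3. Its level stayed far below that of *Mef2a*, *Mef2c* and *Mef2d*, at a mean of 7.46 per length in *Smyd1-KO* hearts, and it shares 4.42% of its exon bases with *Borcs8* on the same strand. *Wwtr1*, which encodes the TEAD coactivator TAZ, had a log2 fold change of 0.43 (edgeR adjusted *P*=0.0531), *Ets1* one of 0.52 (edgeR adjusted *P*=0.0647) and *Irx6*, an Iroquois gene, one of 1.64 (edgeR adjusted *P*=0.0760).

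Of 26 genes that cardiac factors are known to activate, 0 were called by edgeR, 2 had an unadjusted *P* below 0.05 and DESeq2 called 1, where 4.28%, 25.1% and 9.29% of all genes did. Their median log2 fold change was -0.10. *Nppa*, the natriuretic peptide gene activated by NKX2-5, GATA4 and TBX5 and held back by TBX2, gave 184, 121 and 82.3 CPM in WT hearts and 182, 471 and 398 CPM in *Smyd1-KO* hearts. Mutant heart 1 lay at the level of WT heart 1, and the log2 fold change was 1.44 (SE 0.400, edgeR adjusted *P*=0.0814). *Myh6*, the alpha myosin heavy chain gene, had a log2 fold change of -0.71 (edgeR adjusted *P*=0.172), with all mutant hearts below the WT hearts.

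Of 18 signals and factors of the second heart field, 0 were called by edgeR, 1 had an unadjusted *P* below 0.05 and DESeq2 called 1, beside the same 4.28%, 25.1% and 9.29% of all genes. The median log2 fold change was 0.31. The gene with the smallest *P* was *Tdgf1*, a Nodal co-receptor gene of the outflow tract (log2 fold change -0.85, edgeR adjusted *P*=0.0675). Of 12 atrioventricular canal and cushion genes, 0 were called by edgeR, 5 had an unadjusted *P* below 0.05 and DESeq2 called 3, beside 4.28%, 25.1% and 9.29% of all genes. The median log2 fold change was -0.17. *Nfatc1*, of endocardial cells, stood at -0.83 (edgeR adjusted *P*=0.0687), the cushion growth factor gene *Tgfb2* at -0.74 (edgeR adjusted *P*=0.110) and *Snai2* at 0.76 (edgeR adjusted *P*=0.0989). *Postn*, at 3.25 (edgeR adjusted *P*=0.128), gave 39.5, 7.04 and 36.9 CPM in WT hearts and 150, 27.0 and 618 CPM in *Smyd1-KO* hearts, so that mutant heart 2 lay within the WT range.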

How the data were processed

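Poly(A) RNA from 6 single E9.5 mouse hearts (3 WT, 3 *Smyd1-KO*) had been sequenced as 75 bp paired-end reads and aligned by the authors to mm10 with STAR. The authors deposited raw counts per gene; the counting tool, annotation and strand setting are not given in the sources used here, and the deposited normalized table was not used. Counts of 54532 genes were filtered by expression (19372 kept), scaled by TMM and tested with edgeR 4.0.16 (quasi-likelihood, R 4.3.3), with DESeq2 1.42.0 as an alternative. The common biological coefficient of variation was 22.5%. Intervals are 95%. The thresholds for a call follow the methods of the study. Levels per length used merged GENCODE M21 exons. Nothing says that the hearts came from separate litters, so p-values measure the spread between these embryos. The edgeR test was tried on simulated counts beforehand.

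The members and lists were chosen with earlier results of these data known. Every heart was to be shown for members called, members with an unadjusted *P* below 0.05 and no overlap, and the highest WT level of each role group, and up to 4 genes were to be named per list. The values by heart of *Hand1*, *Hand2*, *Tbx20*, *Mef2c*, *Tbx1*, *Isl1*, *Irx1*, *Irx3*, *Heyl* and *Tbx3* were added after they were seen. Alternatives were other normalizations and filters, DESeq2, a test against the threshold itself, a replicate block and leaving out each heart.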

Additional observations from a re-analysis of the deposited data

How the results depend on the processing

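Over 16 settings and 37 members, 555 of 592 fold changes kept their direction and their side of the thresholds, and the direction held in every setting for 24 members. Called members numbered 0 in edgeR, 2 in DESeq2 (*Gata5*, *Irx1*), 1 with the cardiomyocyte markers as a covariate (*Gata5*) and 0 to 1 when 1 heart was left out (*Hey2* without *Smyd1-KO* heart 1, *Irx1* without *Smyd1-KO* heart 3). Genes called in all numbered 830, or 1749 in DESeq2, 154 in the test against a log2 fold change of 0.5, 1626 with the covariate and 97 to 1256 when 1 heart was left out. Deviations of hearts with equal numbers had correlations of -0.216, -0.0538 and -0.182. With 3 hearts a genotype, these values cannot tell whether equal numbers mark related embryos. A replicate block gave 59 genes and 0 members.

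*Smyd1* was at -1.001 in DESeq2 (adjusted *P*=0.00534) and -0.90 with the covariate (adjusted *P*=0.00164), called in both. DESeq2, no filter and the covariate called 1, 1 and 4 of the cardiac target genes, 1, 1 and 1 of the second heart field genes, 3, 1 and 1 of the cushion genes and 4, 3 and 4 of the related factors. Leaving out 1 heart gave 0 to 3 cardiac target genes and 0 to 5 related factors, with *Mef2b* not called without WT heart 2 or WT heart 3.

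Signs turned in 13 members, none of them called, with *Tbx1* (0.49) having the largest fold change of these. *Tbx5* was at 0.00338 in DESeq2, 0.000612 and 0.00168 with relative log and upper-quartile scaling, 0.00411 without the filter and 0.0584 with the covariate. The block put *Srf* at 0.0136 and *Nr2f2* at 0.0123, and the covariate put *Srf* at 0.0579. With 1 heart left out, ranges were -0.35 to 0.13 for *Nkx2-5*, -0.38 to 0.0783 for *Gata4*, -0.0868 to 0.34 for *Gata6*, -0.23 to 0.24 for *Tbx5*, -0.0882 to 0.17 for *Mef2a*, -0.18 to 0.21 for *Srf*, -0.35 to 0.14 for *Hopx*, -0.16 to 0.70 for *Ankrd1*, -0.00213 to 0.99 for *Tbx1*, -0.14 to 0.57 for *Foxc1*, -0.13 to 0.12 for *Hey1*, -0.39 to 0.10 for *Nr2f1* and -0.21 to 0.24 for *Nr2f2*. Apart from the hearts left out, the cause of these changes was not tested. With 3 hearts a genotype, intervals past 2-fold for 13 members set the limit of what could be seen.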
